A study of Mus musculus with 4 samples.

Results

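The potassium channel genes of the array were taken as every probe set annotated to exactly 1 gene symbol that begins with Kcn. This rule used names and no measured value. It gave 167 probe sets of 84 genes, out of 34945 probe sets of 18193 genes with 1 symbol, and all 84 symbols were found unchanged in the RefSeq gene table. Among the genes, 81 were protein-coding and 3 were long noncoding RNAs. By subfamily there were 31 voltage-gated genes, 8 calcium-activated or Slo family genes, 15 inward rectifiers, 12 two-pore channels, 15 auxiliary subunits and the 3 noncoding genes.

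Expression was measured on Affymetrix MOE430 arrays at postnatal day 1 (Theiler stage 27) in FVB/N mice. The ureter group was 3 arrays of unpooled whole ureters, freed from kidney and bladder, from males carrying an SMGA/EGFP transgene; the series title equates SMGA with Actg2, the smooth muscle gamma actin gene. The reference was 1 array of pooled whole newborns of both sexes, for which no transgene was recorded. RNA of both groups went through 2 rounds of amplification. Tissue, transgene, sex and pooling therefore changed together between the groups and cannot be told apart. The labels do not state whether different animals gave the 3 ureter samples. If they did not, the spread that the p-values rest on is technical.

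Potassium channels let potassium leave or enter the cell and so set the resting membrane voltage and end the action potential. In smooth muscle, including that of the ureter, they counter the calcium entry that drives contraction. Voltage-gated channels open on depolarisation, calcium-activated channels on a rise in calcium, inward rectifiers carry current best near rest, and two-pore channels give a steady leak. Auxiliary subunits have no pore of their own and tune the trafficking and gating of the channels they bind.

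Values are given as quantile-normalized intensities, in array units. A difference is the mean log2(intensity + 12.23) of the ureters minus that of the reference, so 1 unit is a doubling, and folds of dim probe sets are understated. Intensities of different probe sets cannot be ranked against each other. A probe set was called where limma's test gave a Benjamini-Hochberg adjusted p under 0.05 over all 27022 probe sets left after the dimmest 40% were removed. Each gene was represented by its brightest tested probe set. As a guide to background, the brightest of 27 bacterial control probe sets lay at 89.2, 180 and 127 in ureter replicates 1, 2 and 3 and at 120 in the reference, and is called the control level.

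Over the whole array, 6.37% of tested probe sets were called, 753 higher and 968 lower in the ureters. Defining markers of the labelled tissue were present: 6 of 8 smooth muscle and 4 of 6 urothelial markers were called higher. Of markers of other organs, 4 of 8 neuronal and 5 of 7 skeletal muscle markers were called lower, 2 of 5 heart markers lower and 1 higher. Of 6 kidney tubule markers limma called none, also at an unadjusted p under 0.05. Ureter replicate 1 differed from the others in array measures of RNA quality, in both directions. Its 3′ to 5′ probe set ratio was 38.3 for Tfrc against 2.01 and 2.51 in the other ureters and 8.93 in the reference, and 4.89 for actin against 2.88 to 3.56 on the other arrays. Its Gapdh ratio was the lowest, 16.6 against 19.8 to 21.6. The part of these differences in its values was not tested.

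Of the 84 genes, 53 passed the filter on low values and 31 did not, so the counts that follow describe the 53 only. Kcnk1 alone was called higher, 1 of 53 or 1.89%, where 3.05% of all 13718 genes tested were called higher. No Kcn gene was called lower by limma, where 4.88% of all genes were; at an unadjusted p under 0.05, 3 Kcn genes were higher (Kcnk1, Kcnab1 and Kcnj8) and 5 lower (Kcnk10, Kcnd2, Kcnq1, Kcna1 and Kcnq1ot1). These 8 are 15.1% of the Kcn genes, where 26.4% of all genes had such a p. All 3 ureters exceeded the reference for 9 genes (17.0%, against 39.8% of all genes) and all 3 lay below it for 20 (37.7%, against 30.8%), leaving 24 whose ureters straddled it. The median difference was -0.38 over the Kcn genes (-0.21 without ureter replicate 2) and 0.10 over all genes. With no filter the median over all 84 Kcn genes was -0.19. The filter took the mean of the ureter mean and the 1 reference value. A gene at background in 1 group could thus pass through the other. Kcnq1 passed with no ureter above its control level, and Kcnip3 with the reference below its own. Kcng1 did not pass, although 1 of its probe sets was above the control level in all 3 ureters. In bulk tissue, fewer cells of a type and less RNA per cell cannot be told apart.

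The potassium channel probe sets were dim as a group. The median log2 level of the tested genes was 8.16, against 10.50 for all genes tested. Of the 167 probe sets, 22.2% exceeded the control level in all 3 ureters, where 49.2% of all probe sets did, and in the reference 46.7% did, against 61.2%. Through at least 1 probe set, 28 genes were above the control level in all 3 ureters, and 17 genes were above it on no array.

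**Figure D1:**
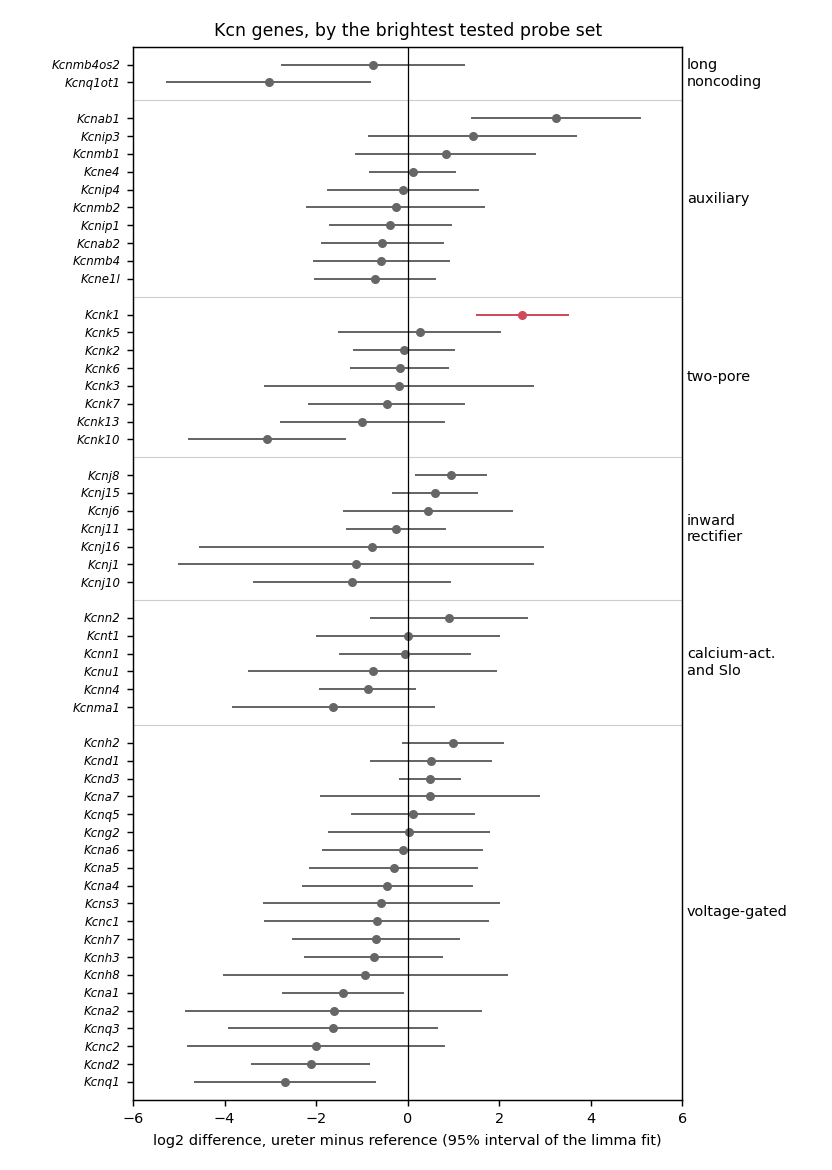
Log2 difference between ureter and reference for the 53 tested potassium channel genes, each by its brightest tested probe set and grouped by class; points are estimates and bars the 95% intervals of the limma fit. The interval of Kcnk1 runs from 1.51 to 3.51, and most other intervals cross 0.

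Two-pore channels gave the called gene. Kcnk1 encodes TWIK-1, a weakly inward-rectifying leak channel. Its brightest probe set measured 25392, 13184 and 14112 in ureter replicates 1, 2 and 3 and 2940 in the reference. The lowest ureter thus lay several times above the reference, and the groups did not overlap. The difference was 2.51 ± 0.41 (SE, n = 3 ureters and 1 reference), 5.69-fold, with a limma adjusted p of 0.0249 and a 95% interval of 1.51 to 3.51. Without ureter replicate 3 the adjusted p was 0.0837, and without the intensity trend in limma it was 0.0823. A dimmer Kcnk1 probe set also had all ureters higher, at 973, 1563 and 849 against 356, a difference of 1.58 ± 0.50 that was not called (limma adjusted p = 0.125). Beside these values, the 6 urothelial markers summed to 140554, 80788 and 98596 in ureters 1, 2 and 3 and to 15956 in the reference; their part in the Kcnk1 difference was not tested.

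Kcnk10, which encodes the mechanically and lipid-gated channel TREK-2, had the most negative difference of the class. It measured 122, 57.1 and 90.3 in the ureters and 815 in the reference. Only ureter replicate 1 was above its control level, and all 3 ureters lay far below the reference. The difference of -3.07 ± 0.70 missed the threshold (limma adjusted p = 0.0584), with a 95% interval of -4.77 to -1.37. It passed under 3 of 11 alternatives, with a limma adjusted p of 0.0225 at an offset of 100 and 0.0493 without ureter replicate 2. The third was the mean of each gene's tested probe sets, at 0.0422. Kcnk10 has a single tested probe set, so that alternative left its values unchanged and altered only the fit and adjustment around them. Summed neuronal markers were 4284, 3663 and 3353 in the ureters and 30735 in the reference, with 4 of 8 still above the control level in all ureters, and their part in this value was not tested.

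The other two-pore channels with clear signal lay close to the reference. Kcnk2 (TREK-1, a stretch-sensitive channel found in smooth muscle) measured 2900, 1615 and 1892 against 2185, a difference of -0.08 ± 0.45 with a 95% interval of -1.17 to 1.01. Kcnk6 (TWIK-2) measured 2621, 1645 and 1643 against 2173, a difference of -0.18 with an interval of -1.23 to 0.87. In both genes ureter replicate 1 was above the reference and the other two were below it. These intervals still allow a doubling or a halving of Kcnk2. With arrays centred on their medians, both differences were positive, 0.65 and 0.54, where the median of all genes moved to 0.68.

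Kcnk3, the acid-sensitive channel TASK-1, varied most among the two-pore genes, at 663, 73.8 and 603 in the ureters and 365 in the reference. Ureter replicate 2 was below its control level and the other two were above the reference. The difference was -0.19 ± 1.20, and without replicate 2 it was 0.80. Kcnk5 (TASK-2) differed by 0.26 and Kcnk13 (THIK-1) by -0.99, and neither was called (limma adjusted p = 0.869 and 0.467). Over the 8 tested two-pore genes, 2 differences were positive and 6 negative, with a median of -0.19 that was -0.55 without replicate 1 and 0.019 without replicate 2.

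The calcium-activated class turned on Kcnma1, which encodes the pore of the large-conductance BK channel of smooth muscle and neurons. Its probe sets disagreed. The brightest measured 228, 1006 and 1095 in the ureters and 1983 in the reference, so every ureter was lower, and replicate 1 lay well under the other two. That difference of -1.62 ± 0.91 was not called (limma adjusted p = 0.336). The probe set 1428948_at measured 1788, 1372 and 1460 against 244, with the ureters close together and all far above the reference. Here the difference was 2.59 ± 0.41, 6.01-fold, and was called (limma adjusted p = 0.0235; 0.107 without ureter replicate 3).

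A further Kcnma1 probe set, 1425987_a_at, measured 463, 772 and 538 against 430, and another, 1440728_at, 94.1, 560 and 69.2 against 144. Neither was called, with limma adjusted p of 0.669 and 0.962. The mean over the 4 tested probe sets differed by 0.38 (adjusted p = 0.723). The untested probe set measured 17.0, 76.0 and 77.5 against 86.0, under the control level on every array. Kcnma1 is a gene of many alternative transcripts, and which transcript each probe set reads was not analysed here. The direction for the gene therefore depends on the probe set, and the rule of the brightest one counts Kcnma1 among the genes lower in all ureters.

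**Figure D2:**
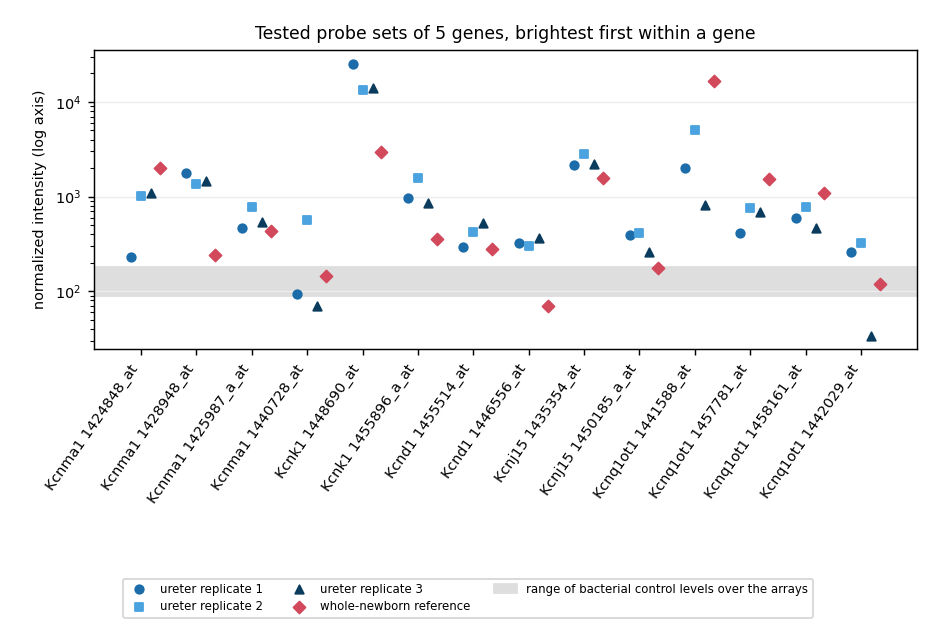
Normalized intensity (log axis) of every tested probe set of 5 genes on each array, the brightest of each gene first; the grey band spans the control levels of the 4 arrays. For Kcnma1 the brightest probe set has the reference highest and 1428948_at has all 3 ureters above the reference; both Kcnk1 probe sets have the ureters above it.

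The promoters of Kcnk1 and Kcnma1, the genes with a called probe set, are shown as RefSeq gives them for GRCm38.p6, from 250 bases before to 50 after an annotated start. Capitals mark GC boxes, the letters GGGCGG on either strand. The Kcnk1 window is chr8:125994852-125995151 on the plus strand, and the Kcnma1 window is chr14:24004156-24004455 on the minus strand.
Kcnk1: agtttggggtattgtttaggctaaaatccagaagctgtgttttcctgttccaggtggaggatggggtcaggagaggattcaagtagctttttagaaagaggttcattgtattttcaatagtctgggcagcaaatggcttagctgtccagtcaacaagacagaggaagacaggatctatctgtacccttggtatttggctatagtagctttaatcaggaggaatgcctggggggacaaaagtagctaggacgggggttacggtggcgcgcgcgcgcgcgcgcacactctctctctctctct
Kcnma1: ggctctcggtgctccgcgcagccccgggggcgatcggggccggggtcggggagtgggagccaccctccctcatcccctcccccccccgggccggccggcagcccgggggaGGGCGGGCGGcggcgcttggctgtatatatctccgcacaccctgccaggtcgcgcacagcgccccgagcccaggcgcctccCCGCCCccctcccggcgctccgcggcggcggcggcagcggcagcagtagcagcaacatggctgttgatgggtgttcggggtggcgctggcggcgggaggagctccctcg
The Kcnk1 window held 0 GC boxes and 10 CpG dinucleotides at 49% GC, and that of Kcnma1 3 GC boxes and 36 CpG at 78% GC, where the median promoter held 7 CpG. The GC boxes of Kcnma1 include an overlapping pair. Counting both strands, 35.7% of all 32851 promoters and 48.3% of the 89 promoters used for 64 of the 84 Kcn genes held a GC box. A chromosome left out of the Kcn set was kept among all promoters. The letters TATAAA were in 13.6% of all promoters and 5.62% of the Kcn promoters, and CANNTG, the E-box, in 72.3% and 73.0%. The CArG box, the motif read by serum response factor, was in 1.63% of all promoters and in 0 of the 89. Both shown windows lacked TATAAA and the CArG box, and E-boxes numbered 2 in the Kcnk1 window and 0 in that of Kcnma1. These counts describe letters and not binding.

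Small- and intermediate-conductance channels were not called. Kcnn4, the intermediate-conductance channel of epithelia and blood cells, measured 1330, 872 and 1142 in the ureters and 2023 in the reference. Every ureter was lower, with a difference of -0.87 ± 0.43 that was not called (limma adjusted p = 0.275), and its dimmer probe set differed by 0.10. Kcnn2 (SK2) measured 743, 416 and 240 against 220, all above the reference though replicate 3 barely so, for a difference of 0.90 ± 0.70 (adjusted p = 0.493). Kcnn1 (SK1) and Kcnt1, a sodium-activated channel of the Slo family, differed by -0.06 and 0.01. Of the ureters, only replicate 1 was above its control level on that Kcnt1 probe set. The dimmer tested Kcnt1 probe set measured 124, 55.3 and 133 against 164. All ureters were lower there, with a difference of -0.68 ± 0.82 (limma adjusted p = 0.673). Kcnn3 (SK3) was at or below the control level on every array and was not tested. The class had a median of -0.41 over 6 genes, with 2 positive and 4 negative, and 0.092 without ureter replicate 3.

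Among inward rectifiers, Kcnj8 encodes Kir6.1, the pore of the ATP-sensitive channel of smooth muscle and pericytes. It measured 4064, 4488 and 4694 in the ureters and 2296 in the reference. The ureters lay within a narrow range and all clearly above the reference. The difference of 0.94 ± 0.32 was not called (limma adjusted p = 0.140, unadjusted 0.024), with a 95% interval of 0.17 to 1.70. Abcc9, the sulfonylurea receptor SUR2 that assembles with Kir6.1 and lies next to Kcnj8 in the RefSeq annotation, measured 7457, 12454 and 12420 against 5744. All 3 ureters were again higher, at 0.87 ± 0.37 (limma adjusted p = 0.220). Pericyte markers summed to 51904 to 52358 in the ureters and to 14203 in the reference, with 1 of 4 called higher. Most of the ureter sum was Rgs5, the called marker, at 45284, 35879 and 39688 against 7250. Of the 4 markers, 3 had positive differences and Cspg4 a negative one, at -0.21. The part of pericyte RNA in the Kcnj8 and Abcc9 values was not tested.

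Kcnj11, which encodes Kir6.2, the ATP-sensitive pore of pancreatic islets, heart and skeletal muscle, measured 547, 651 and 494 against 671. The ureters were slightly below the reference, at -0.26 ± 0.44, and the difference was 0.05 with centred arrays. Its islet partner Abcc8 was below the filter. Kcnj15 (Kir4.2) had all ureters higher on both probe sets, at 2168, 2844 and 2205 against 1572 on the brighter and 396, 412 and 259 against 176 on the dimmer. Neither was called, with differences of 0.60 ± 0.37 and 0.93 ± 0.55 (limma adjusted p = 0.390 and 0.364). Kcnj6, a G-protein-gated channel of neurons, differed by 0.45 with the reference below its control level.

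**Figure D3:**
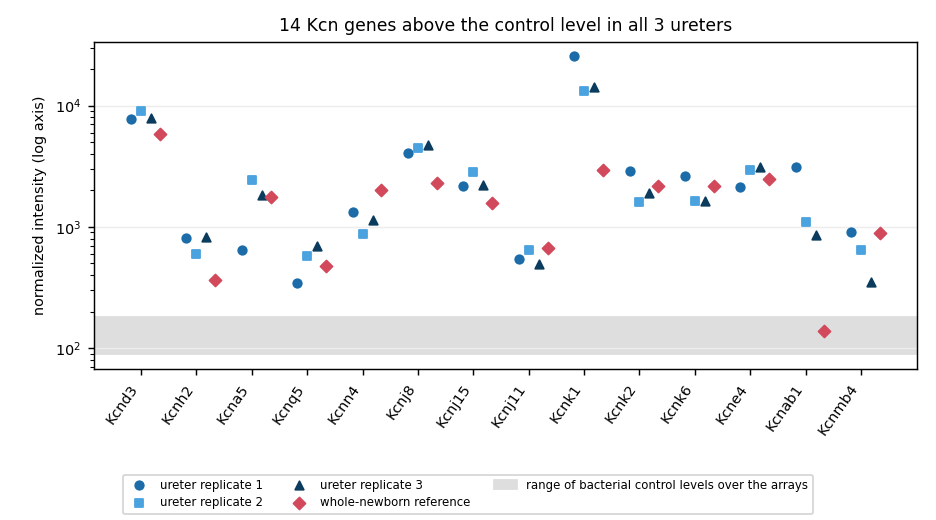
Normalized intensity (log axis) of 14 potassium channel genes above the control level in all 3 ureters, chosen for display after their values were seen; the grey band spans the control levels of the 4 arrays. Kcnk1, Kcnab1, Kcnj8, Kcnj15, Kcnd3 and Kcnh2 have all ureters above the reference, and Kcnn4 and Kcnj11 have all ureters lower.

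A trio of inward rectifiers known from kidney tubules, not a full list of the channels found there, differed sharply between the ureters. Kcnj1 encodes ROMK, the potassium secretion channel of the thick ascending limb and collecting duct, and Kcnj10 and Kcnj16 encode Kir4.1 and Kir5.1, which pair in the basolateral membrane of tubule cells. Kcnj1 measured 13.1, 495 and 217 in ureters 1, 2 and 3 and 302 in the reference. Kcnj16 measured 19.2, 550 and 258 against 279 on 1 probe set and 16.9, 362 and 546 against 185 on the other. Kcnj10 measured 56.9, 214 and 212 against 338. On each of these probe sets ureter replicate 1 was below its control level and the other two were above theirs. An untested Kcnj1 probe set went the other way, at 105, 105 and 4.64 against 3.67, with only replicate 1 above its control level.

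Their differences, -1.13 ± 1.59, -0.79 ± 1.54 and -1.21 ± 0.88, were not called (limma adjusted p = 0.723, 0.807 and 0.462). Without replicate 1, Kcnj1 and Kcnj16 came to 0.11 and 0.40 and Kcnj10 to -0.61. The 6 kidney tubule markers measured summed to 774, 10858 and 5774 in the ureters and to 4898 in the reference. Ureter replicate 1 was the lowest ureter for 6 of 6. Of these markers 3 exceeded the control level in ureter 1 and 6 in each of the other arrays. Umod, the product of the thick ascending limb, measured 52.5, 2019 and 956 against 2001. The part of kidney tubule RNA in the values of these genes was not tested. Replicate 1 was not low throughout the Kcn genes: of the 53 tested it was lowest for 20 and highest for 22. Kcnk5 had replicate 1 highest, at 523, 323 and 166 in ureters 1, 2 and 3, and Kcnj15 varied little, at 2168, 2844 and 2205.

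**Figure D4:**
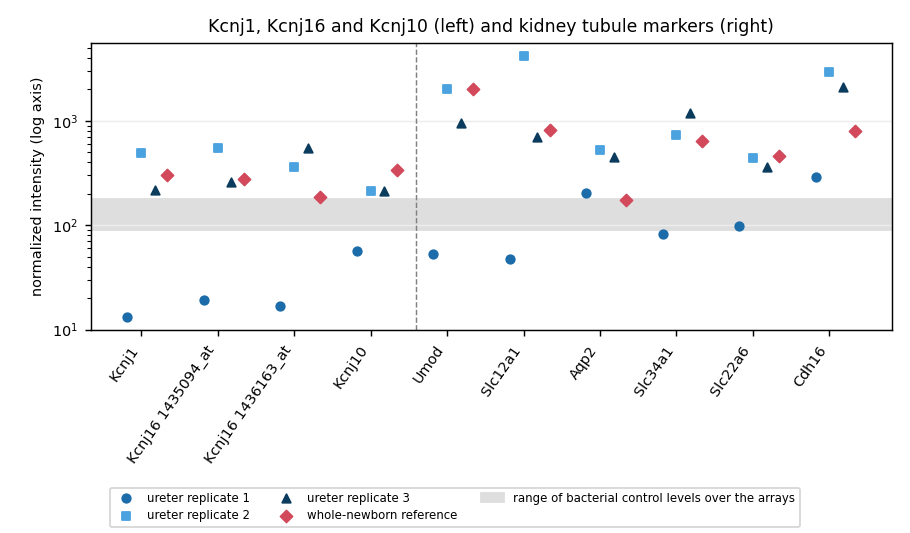
Normalized intensity (log axis) of the tested probe sets of Kcnj1, Kcnj16 and Kcnj10, left of the dashed line, and of 6 kidney tubule markers, right of it; the grey band spans the control levels. Ureter replicate 1 is the lowest ureter for each probe set shown.

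Voltage-gated channels made up the largest class, with 20 of 31 genes tested, 6 differences positive, 14 negative and a median of -0.63 (-0.35 without ureter replicate 2). No gene of the class was called in either direction, and 3 of 20 (15%) had an unadjusted p under 0.05, all lower, where 12.6% of all genes were lower at that p. Channels of the Shal family carry fast transient currents. Kcnd3 (Kv4.3) measured 7786, 9042 and 7962 in the ureters and 5886 in the reference. Its ureters were close together and all above the reference, with a difference of 0.49 ± 0.27 that was not called (limma adjusted p = 0.329).

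Kcnd1 (Kv4.1) had both tested probe sets higher in all ureters. The brighter measured 296, 428 and 532 against 282, a difference of 0.51 ± 0.54. The dimmer measured 321, 304 and 367, with the reference at 70.5 and under its control level, so the ureters were at least 2.58-fold higher (limma adjusted p = 0.0869). A bound of this kind sets the mean of the bright group against the control level of the dim one. Kcnd2 (Kv4.2), a major transient current channel of neurons, ran the other way at 191, 177 and 253 against 930. All ureters were far lower, at -2.12 ± 0.53 (limma adjusted p = 0.0715). Its dimmer probe set was at or below the control level in all ureters and at least 1.90-fold lower (adjusted p = 0.334).

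Kcnq1 (KvLQT1), which carries the slow delayed rectifier of heart and works in potassium-recycling epithelia, measured 48.9, 46.3 and 45.8 in the ureters and 369 in the reference. No ureter rose above its control level, so the value is a bound of at least 2.73-fold lower (limma adjusted p = 0.111). Heart markers summed to 22902 to 27849 in the ureters and to 29979 in the reference, with 1 of 5 called higher and 2 lower. Most of the ureter sum was Tnnt2, the 1 heart marker with a positive difference, at 24613, 19323 and 24319 against 9981. Myh6 measured 2808, 3260 and 3267 against 17791, and the remaining heart markers were also lower in the ureters on average. The part of heart RNA in the Kcnq1 value was not tested. Among relatives of Kcnq1, Kcnq5 (Kv7.5), described in smooth muscle, measured 346, 578 and 691 against 477. Its ureters straddled the reference, with a difference of 0.11 ± 0.55. An untested Kcnq5 probe set measured 145, 72.6 and 161 against 15.6, with replicates 1 and 3 above their control levels. Another untested one measured 92.6, 11.1 and 8.57 against 35.0. Kcnq3, a partner in the neuronal M-current, differed by -1.63 ± 0.94 (adjusted p = 0.350).

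Kcnh2, the ERG channel of heart and of several smooth muscles, measured 810, 602 and 829 in the ureters and 367 in the reference. All ureters were higher, at 0.99 ± 0.45, and the difference was not called (limma adjusted p = 0.248). Kcna5 (Kv1.5), a delayed rectifier of vascular muscle, measured 650, 2459 and 1831 against 1775, so replicate 1 lay under the reference and the other two above it. Its difference of -0.31 ± 0.75 became 0.25 without replicate 1 and 0.26 with centred arrays. Kcna1 and Kcna2, axonal channels, differed by -1.42 ± 0.54 and -1.62 ± 1.33 and Kcnc2, a channel of fast-spiking neurons, by -2.0 ± 1.15. All ureters lay below the reference for these 3 genes, and none was called (limma adjusted p = 0.181, 0.516 and 0.348). As with Kcnk10, these values stand beside a lower sum of neuronal markers, whose part was not tested.

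The smallest differences of the class were 0.03 for Kcng2, a silent subunit, and -0.11 for Kcna6, both dim. The dimmer tested Kcna6 probe set measured 24.3, 126 and 166 in the ureters against 228. All ureters were lower there, with a difference of -1.31 ± 1.08 that was not called (limma adjusted p = 0.518). Kcng1, another silent subunit, did not pass the filter, although 1 probe set measured 183, 291 and 321 in the ureters against 37.4 in the reference, at least 2.04-fold higher. That value is a description with no test, and it was picked out after it was seen.

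Among auxiliary subunits, Kcnab1 had the most positive difference of all 53 genes. It encodes a cytoplasmic beta subunit that speeds inactivation of Kv1 channels. The ureters measured 3107, 1092 and 854 and the reference 140, just above its control level. All 3 ureters lay far above the reference, with replicate 1 the highest. The difference of 3.24 ± 0.76, 9.46-fold, missed the threshold (limma adjusted p = 0.0621), with a 95% interval of 1.40 to 5.09. It passed under 4 of 12 alternatives, with adjusted p over all alternatives from 0.0405 to 0.116. Smooth muscle markers summed to 149932, 174982 and 173935 in the ureters and to 64821 in the reference, and their part in this value was not tested. A second, untested Kcnab1 probe set measured 138, 83.1 and 91.2 against 90.6. Its ureters straddled the reference, and only replicate 1 was above its control level.

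The BK beta subunits were not called. Kcnmb1, the beta1 subunit that raises calcium sensitivity in smooth muscle, measured 132, 477 and 241 in the ureters and 135 in the reference. Replicate 1 lay just under the reference and the other two above it, a difference of 0.83 ± 0.80 (limma adjusted p = 0.587). A second, untested probe set measured 161, 111 and 143 against 18.1, at least 1.12-fold higher. Replicate 2 and the reference were below their control levels on it. Kcnmb1 lies within the span of Kcnip1 in the RefSeq annotation, and whether its probe sets also read Kcnip1 transcripts was not analysed here. Kcnmb4, the beta4 subunit of neurons, measured 909, 640 and 353 against 886 and differed by -0.58 ± 0.61.

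Kcne4, a single-span subunit that inhibits several Kv channels, measured 2149, 2955 and 3124 against 2507. The ureters straddled the reference, with a difference of 0.11 ± 0.38 and a 95% interval of -0.82 to 1.04. Kcne1l differed by -0.72 ± 0.54 with all ureters lower, and Kcne3 was at or below the control level on every array. Kcnip3, a calcium-binding partner of Kv4 channels also known as DREAM, measured 207, 102 and 500 with the reference at 75.4 and below its control level. Its ureters were at least 1.77-fold higher (limma adjusted p = 0.413), with replicate 2 below its own control level. Kcnip4 differed by -0.10, and by -0.009 on its dimmer tested probe set. An untested Kcnip4 probe set measured 162, 86.0 and 371 with the reference at 54.0 and below its control level, at least 1.41-fold higher. Replicate 2 was below its own control level there too. The class had 4 positive and 6 negative differences and a median of -0.18, which was 0.061 without replicate 1 and -0.35 without replicate 3.

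The noncoding members had the lowest median, -1.90 over the 2 tested. Kcnq1ot1 is the imprinted antisense RNA that lies within Kcnq1 and silences neighbouring genes on the paternal chromosome. Its brightest probe set measured 2008, 5091 and 823 in the ureters and 16778 in the reference. Every ureter was several times lower, though the ureters themselves spread widely, and the difference of -3.03 ± 0.91 was not called (limma adjusted p = 0.111). The other tested probe sets differed by -1.34, -0.85 and 0.28 (adjusted p = 0.179, 0.338 and 0.919). Kcnq1 and Kcnq1ot1 overlap, and which of their transcripts each probe set reads was not analysed here. Kcnmb4os2, which overlaps Kcnmb4 in part, differed by -0.76 ± 0.82.

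The potassium channel genes varied more between the ureters than genes in general. The median SD of the 3 log2 values was 0.55 for the 53 genes and 0.32 for all genes tested, and 29 of 53 (54.7%, against 24.7%) had ureters over 2-fold apart. The lower intensities of these genes were given above, and their part in the spread was not tested. The largest SDs were 2.24 for Kcnj1, 2.16 for Kcnj16, 1.74 for Kcna2, 1.68 for Kcnk3 and 1.61 for Kcnh8. Kcna2 was low in replicate 1, at 13.8 against 216 and 176, and Kcnk3 in replicate 2. Kcnh8 (ELK1) measured 95.5, 23.2 and 318, with the reference at 193. No single ureter was at the extreme throughout: replicates 1, 2 and 3 were lowest for 20, 20 and 13 genes and highest for 22, 14 and 17.

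Of the 31 genes that did not pass the filter, 17 were above the control level on no array. The reference alone or with some ureters was above it for Kcnc4, Kcnh1, Kcnk16 and Kcnv1, and 1 gene, Kcng1, was above it in all 3 ureters. Kcnj2 (Kir2.1), the classical strong inward rectifier, was at or below the control level on every array through its 1 probe set. At this signal over background a difference in genes of that kind was not detectable.

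Of 33 partner and potassium transport genes listed, 22 were measured, with a median difference of -0.13. By limma 1 of the 22 was called higher and 0 lower, where 3.05% and 4.88% of all genes tested were. Fxyd3, a small regulator of the sodium-potassium pump, was the called gene, at 3076, 3390 and 3631 in the ureters and 962 in the reference. All ureters were higher by 1.79 ± 0.35, 3.46-fold (limma adjusted p = 0.0381; 0.0536 without ureter replicate 1 and 0.181 without replicate 3). Slc12a2, the sodium-potassium-chloride cotransporter NKCC1, measured 27278, 23997 and 27546 against 16851, all higher, at 0.64 ± 0.19 (adjusted p = 0.111). Slc12a5, the neuronal potassium-chloride cotransporter KCC2, measured 1110, 1089 and 1005 against 3308, all lower, at -1.62 ± 0.37 (adjusted p = 0.0597). Atp1b1, the pump's beta1 subunit, differed by -0.32 ± 0.22, and by 0.31 with centred arrays. Slc12a1 (NKCC2), a tubule marker, measured 47.3, 4202 and 705 against 823, and Fxyd2, the pump's gamma subunit in tubules, 56.4, 950 and 435 against 311. In both, ureter replicate 1 was the lowest, as for Kcnj1 and Kcnj16.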

How the data were processed

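RNA from 3 ureter samples and 1 whole-newborn pool was measured on Affymetrix MOE430 arrays. The authors deposited 1 linear intensity per probe set and array; the submitters' processing notes name GCOS without a version. In the deposited values each array's mean, with 2% trimmed at each end, was 1500. The sources used here do not describe the background subtraction. Median deposited intensities were 154, 259 and 187 in the ureters and 332 in the reference. With 4 arrays, their number limits the precision.

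From 45101 probe sets, 64 controls were removed, log2(intensity + 12.23) was taken (the 10th percentile of all values) and the arrays were quantile normalized. Printed intensities are these values turned back to the linear scale. The dimmest 40% by the mean of the group means were dropped, leaving 27022. limma 3.58.1 in R 4.3.3 (lmFit, eBayes with intensity trend, two-sided, Benjamini-Hochberg) compared the groups; its 2 residual degrees of freedom come from the ureters. The code was tested on simulated data. Platform annotation gave 1 symbol to 34945 probe sets, several to 932 and none to 9160.

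A few genes of the fixed lists are not reported here. The members and lists were chosen with earlier results of these data known. Named genes were those called, in each class the 2 largest differences in each direction and the 2 smallest, the 5 largest SDs, genes whose probe sets oppose with 1 called, and a fixed list of smooth muscle, epithelial and partner genes. Other Kcn genes named, such as Kcna1, Kcnc2, Kcnq3, Kcng1 and Kcnj2, were picked after their values were seen. Replicate numbers are in accession order. Alternatives were the offset, the filter, the scaling, the trend, the mean of probe sets and each ureter left out.

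Of the marker lists, endothelium, pericyte and fibroblast had 1 called higher each of 5, 4 and 5 genes, glia 1 of 4 called lower, kidney tubule 0 of 6 and pancreas islet 0 of 2.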

Additional observations from a re-analysis of the deposited data

How the results depend on the processing

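Over 39 named Kcn genes and 12 alternatives, 400 of 439 values kept their direction and their side of the threshold, 11 newly passed it, 2 no longer did and 26 changed sign. Kcnk1, called higher, stayed positive throughout and lost its call without the intensity trend and without ureter replicate 3. The count of Kcn genes called higher was 2 with arrays centred on their median, with the dimmest 60% left out and with the mean of all tested probe sets (Kcnab1 and Kcnk1), 0 without the intensity trend, and 0 to 2 when each ureter was left out. The count called lower was 1 with the mean of tested probe sets (Kcnk10), 1 without the trend (Kcnq1), 3 at an offset of 100 (Kcnd2, Kcnk10 and Kcnq1), and 0 to 2 leaving out each ureter, the 2 (Kcnk10 and Kcnq1ot1) without replicate 2. Kcnab1 and Kcnk10 each have a single tested probe set, so the mean left their own values unchanged.

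The median of all genes was 0.10, 0.68 with centred arrays and -0.05 with the deposited scaling, so differences under those scalings are read against these shifts. The median of the Kcn genes was -0.20 with centred arrays, -0.13 with the dimmest 60% left out, -0.19 with no filter, -0.93 with the deposited scaling and -0.43 to -0.21 leaving out each ureter. With the deposited scaling the class medians were -0.87 for auxiliary, -0.86 for calcium-activated and -1.39 for voltage-gated genes. With the dimmest 60% left out they were -1.25 for calcium-activated genes, 0.60 for inward rectifiers, -0.10 for voltage-gated and -3.03 for noncoding genes. The noncoding median was -1.44 with centred arrays, -1.0 with the mean of probe sets and -0.76 with no filter. Leaving out each ureter gave -0.52 to 0.092 for calcium-activated, -0.61 to -0.35 for voltage-gated, -0.55 to 0.019 for two-pore, -0.35 to 0.061 for auxiliary and -0.37 to 0.25 for inward rectifier genes. Fewer genes are tested with the stricter filter; the cause of the other shifts was not tested.

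Partner and transport genes called higher numbered 0 with centred arrays, without the trend and with the deposited scaling, and 0 to 1 leaving out each ureter. Those called lower numbered 1 with the dimmest 60% left out and 1 with the mean of probe sets. Over the whole array, 1139 probe sets were called with no filter, 922 without the trend and 335 to 2279 leaving out each ureter, the 335 without replicate 3. With the deposited scaling 444 were higher and 882 lower.

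Signs that turned were of differences that were not called. With centred arrays Kcna5 was at 0.26, Kcnj11 at 0.054, Kcnk2 at 0.65, Kcnk3 at 0.037, Kcnk6 at 0.54, Kcnt1 at -0.025 and Atp1b1 at 0.31. With the deposited scaling Kcnd1 was at -0.16, Kcng2 at -0.73, Kcnj6 at -0.32, Kcnk5 at -0.41, Kcnq5 at -0.41 and Kcnt1 at -0.75. With the mean of probe sets Kcnma1 was at 0.38 and Kcnt1 at -0.33. Leaving out each ureter spanned 0 for Kcna5 (-0.71 to 0.25), Kcna6 (-0.60 to 0.14), Kcng2 (-0.30 to 0.28), Kcnip4 (-0.35 to 0.12), Kcnj1 (-2.05 to 0.11), Kcnj16 (-1.66 to 0.40), Kcnk2 (-0.31 to 0.10), Kcnk3 (-0.71 to 0.80), Kcnk5 (-0.11 to 0.66), Kcnn1 (-0.17 to 0.092), Kcnq5 (-0.087 to 0.37) and Kcnt1 (-0.33 to 0.18). The Kcna6 value of -0.60, without replicate 1, came from its other tested probe set, which then stood for the gene. That end of its range thus reflects a change of probe set as well as the ureter left out. The filter on probe sets above the control level was chosen after seeing the data. No paired analysis was possible because the reference was 1 array of pooled newborns. Dim signal limits most members, since 62 of 167 probe sets were above the control level on no array.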
